A study of Mus musculus with 2 samples.

Results

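Cluster 8 is 1 of 12 cell clusters that the authors numbered in a single-cell RNA sequencing count matrix of mouse natural killer (NK) cells, and most of its cells came from tumours. Its members were the cells numbered 8 that carried 1 hashtag, a DNA-barcoded antibody that marks the population a cell was taken from. They numbered 275 of 7479 such cells, or singlets, in all clusters. The mice were C57BL/6, 12 weeks old, and MC38 cells, a mouse colon carcinoma line, were injected under the skin. Some mice had food at all times and others underwent repeated fasting, and NK cells, sorted as lineage-negative cells with NK1.1 and CD49b, were taken from bone marrow, spleen and tumour. Tumour, bone marrow and spleen each had a fasted, a refed and an ad libitum population in the tag list, which adds naive spleen as the tenth. The labels do not explain naive or say whether those mice bore tumours, at which hour fasted and refed mice were taken, or how many mice were used. Each population carried 1 hashtag and all ran in 1 lane, so each was 1 sample with no replicate. Intervals below cover counting error only, no p-value was computed, and differences between mice, dissections and hashtag staining cannot be told apart from those between populations.

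NK cells are innate lymphocytes that kill tumour and virus-infected cells with perforin, which opens the target membrane, and granzymes, proteases that enter through it. They also secrete interferon gamma and the chemokines Ccl3, Ccl4, Ccl5 and Xcl1, which draw and activate macrophages, T cells and dendritic cells. As they mature in circulation they gain Itgam, Klrg1, S1pr5 and Zeb2, and inside tissues and tumours many of these genes are lower. Mice carry a row of further granzymes, Gzmc to Gzmg, that resting NK cells hardly transcribe and cytokine-stimulated or tissue-resident cells can switch on.

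Cells were placed in the tumour populations by the antibody barcodes below, which are shown because every statement on tissue and feeding rests on them. Each tag has 15 bases, and any pair of the 10 tags in use differed at 7 or more positions.
fasted tumour: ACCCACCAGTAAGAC
refed tumour: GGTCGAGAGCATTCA
ad libitum tumour: CTTGCCGCATGTCAT

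Of the 275 cells, 222 (80.7%) came from the fasted tumour, 5 from the refed and 4 from the ad libitum tumour. The spleen gave 31 cells, of which 17 were refed, 7 fasted, 4 ad libitum and 3 naive. The bone marrow gave 13, of which 6 were refed, 4 ad libitum and 3 fasted. Cluster 8 is therefore described mainly by fasted tumour cells.

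The share of a population that fell in cluster 8 was 27.7% in the fasted tumour (24.6% to 31.0%, exact Clopper-Pearson 95% interval, 801 cells). It was 5.26% in the refed tumour (1.73% to 11.9%, 95 cells) and 8.70% in the ad libitum tumour (2.42% to 20.8%, 46 cells). The fasted interval lay above both others, whose intervals overlapped. In the 7 populations from bone marrow and spleen the share ran from 0.222% in the ad libitum spleen to 2.21% in the fasted bone marrow, and over all of them it was 0.673%. Cluster 0, the other large cluster of tumour cells, held 37.6% of the fasted, 29.5% of the refed and 6.52% of the ad libitum tumour cells. Its refed share was thus nearer to its fasted share than in cluster 8. No difference between feeding states was tested, since each had 1 sample. Genes were not compared between feeding states within cluster 8 because the ad libitum tumour gave only 4 cells, under the minimum of 15.

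**Figure D1:**
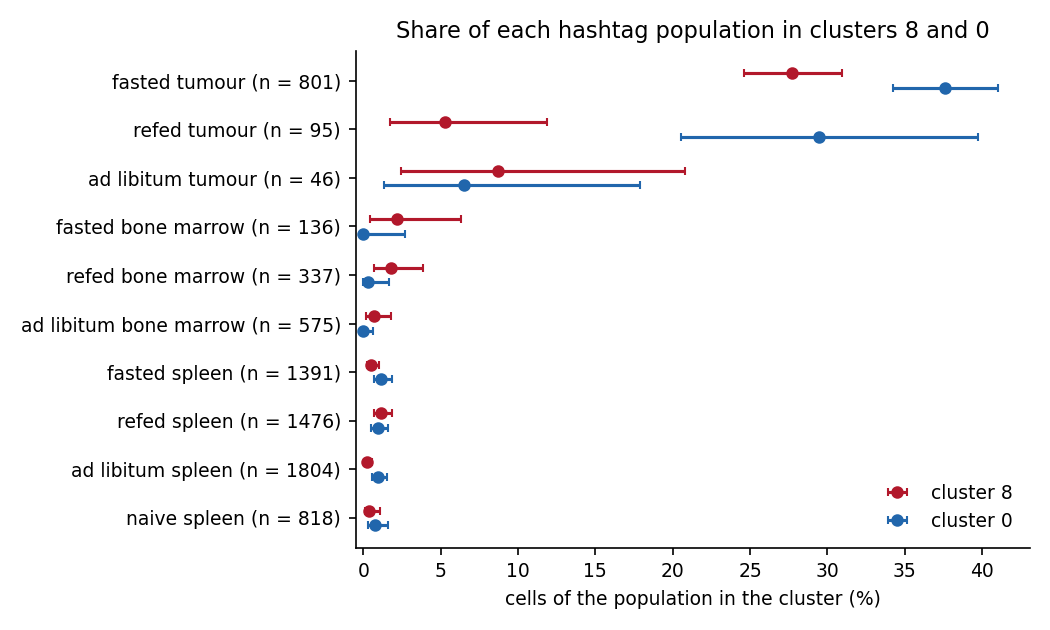
Share of the singlets of each hashtag population that fell in cluster 8 (red) and cluster 0 (blue), in percent. Points are shares, bars are exact 95% binomial intervals, and n is the number of singlets. In cluster 8 the fasted tumour stands at 27.7% and the refed and ad libitum tumours at 5.26% and 8.70%.

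Hashtag doublets bear on these shares. The authors' classification called 396 of the 671 cells numbered 8 doublets (59.0%), 1574 of 1963 in cluster 0 (80.2%) and 42.7% of all cells. Doublets carry no population, so the shares describe singlets alone, and what part the called doublets have in them was not tested. In cluster 8 the median UMI count was 7127.5 in called doublets and 6571 in singlets. UMIs, unique molecular identifiers, count captured RNA molecules.

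Markers of the sorted identity were checked in cluster 8. All 14 measured genes of an NK identity list were detected in its fasted tumour cells, with Gzma at 7259, Fcer1g at 2384, Nkg7 at 2151 and Klrd1 at 1137 CPM (UMIs per 1000000 UMIs of the group). Ncr1, which encodes the NK receptor NKp46, was at 263 CPM. Itga2, which encodes the sorting marker CD49b, was low at 7.78 CPM, against 23.5 in cluster 0. Of a list of group 1 innate lymphoid cell and residency genes, 10 of 12 were detected and summed to 195 CPM, led by Gpr183 at 73.0. Zfp683 and Itgae were at 0 UMIs and Cxcr6 was at 2.39 CPM. The list summed to 206 CPM in fasted tumour cells of cluster 0. Over all populations it summed to 179 CPM in cluster 8 and 90.2 CPM in all other clusters. Of the T cell list, 9 of 12 genes were detected, and Cd4, Cd5 and Cd6 were at 0 UMIs. Trbc1 and Trbc2, whose constant regions NK cells also transcribe, made up most of its 933 CPM. In fasted tumour cells of cluster 0 the list summed to 1033 CPM. Monocyte or macrophage, dendritic cell and neutrophil markers summed to 44.3, 142 and 23.9 CPM, the dendritic sum being mostly Cst3 at 123. B cell, epithelial and erythroid markers summed to under 4 CPM each, and fibroblast or endothelial and basophil or mast cell markers were at 0 UMIs. Across cluster 8, 54 of 275 cells (19.6%) held 3 or more T cell markers, against 15.1% in all other clusters and 16.9% in fasted tumour cells of cluster 0, and the part of these cells in the results was not tested beyond leaving them out. Of other types than T cells, 3 or more markers were held by 4 cells, and 6 cells held at least 2 of Cd3d, Cd3e and Cd3g. An exception were the 13 bone marrow cells, in which Cd3d stood at 540 CPM against 24.5 in the fasted tumour cells, and 1 of which held at least 2 of those 3 genes.

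Tissue and feeding were held constant by comparing the 222 cells of cluster 8 with the 301 cells of cluster 0 inside the fasted tumour population. They summed to 1671719 and 1576838 UMIs, with medians of 6839.5 and 4710 per cell. In cluster 8, effector, stimulation and interferon genes took a smaller share of the UMIs. A larger share went to 1 inducible granzyme and to the genes of protein synthesis. How the authors clustered the cells is not stated in the labels, and clusters are drawn from the cells' expression, so the differences describe the clusters and do not test them. A level is CPM over the summed UMIs of a group, and a difference is the log2 ratio of CPM + 5, followed by its 95% counting interval. Of 2640 genes at 50 CPM or more in either cluster, 10 were at least 2-fold higher in cluster 8 (0.379%) and 98 at least 2-fold lower (3.71%). This split depends on the scaling. Ribosomal protein genes took 36.1% of the UMIs of cluster 8 and 24.97% of those of cluster 0. With TMM factors the counts were 23 higher and 54 lower, and with totals that leave out ribosomal protein and mitochondrial genes they were 60 and 66. Those scalings raised the median of all genes from -0.18 by 0.18 and 0.25, so genes closer to 0 than that have no firm direction.

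**Figure D2:**
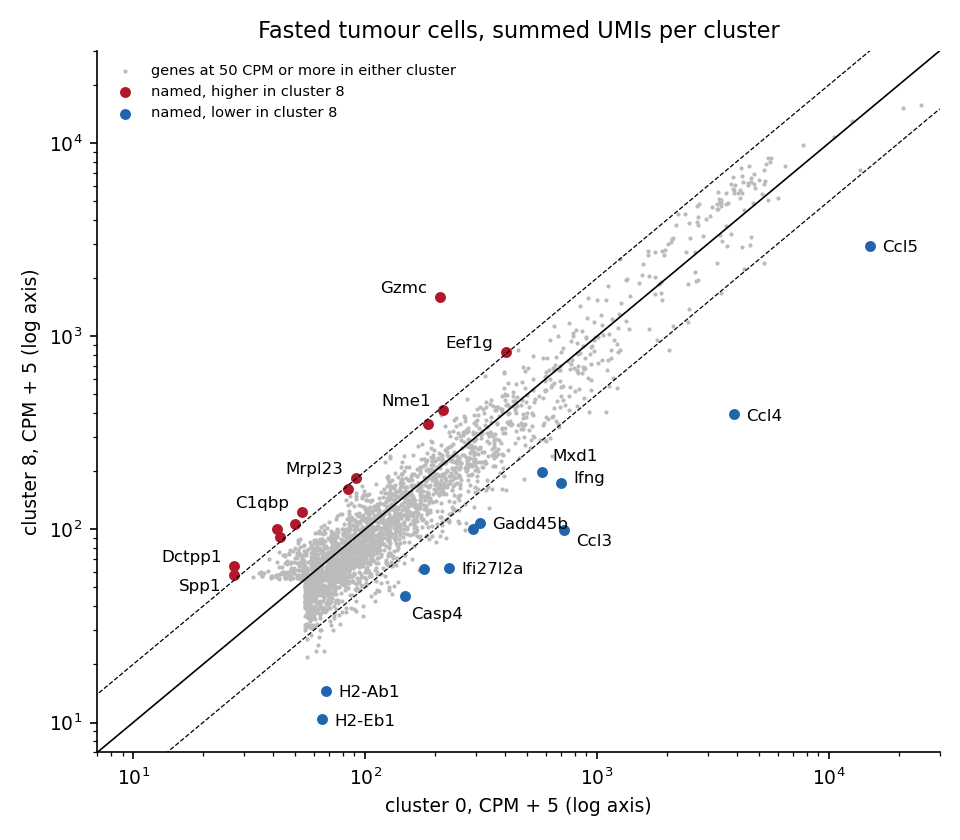
Levels in cluster 8 (vertical) against cluster 0 (horizontal), fasted tumour cells, CPM + 5 on log axes. Each grey point is 1 of 2640 genes, the solid line marks equal levels and the dashed lines a 2-fold difference; named genes are red (higher in cluster 8) or blue (lower). Gzmc stands above the upper line and Ccl4, Ccl3, Ccl5 and Ifng below the lower one.

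Gzmc, at chr14:56231441-56234656 in the mm10 build (GENCODE M21), encodes granzyme C and was the gene with the highest ratio. It stood at 1581 CPM in cluster 8 (1521 to 1643) and 205 CPM in cluster 0 (183 to 228), a log2 ratio of 2.92 (2.75 to 3.09). Under all alternatives tried the ratio lay between 2.40 and 3.17. The transcripts were unevenly spread: 10 cells held 53.2% of the 2643 Gzmc UMIs of cluster 8 and 52.9% of the 323 in cluster 0. After each cell was thinned to 1500 UMIs, the median cell had 0 in both clusters, the 90th percentile was 6 in cluster 8 and 1 in cluster 0, and the highest cells had 51 and 10. Most Gzmc UMIs of either cluster thus lay in few of its cells. Its neighbours in the granzyme row were hardly seen, with Gzmd at 5.98 and 5.07 CPM and Gzmg at 1.79 and 1.90 CPM in clusters 8 and 0. Gzmf was at 95.1 and 36.8 CPM, but 1 cell held 81.8% of its UMIs in cluster 8, and without each cluster's highest cell its ratio went from 1.26 to 0.50. These granzymes resemble each other in sequence, and the labels do not say how reads that match several of them were counted.

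The constitutive killing genes were lower in cluster 8. Of the list genes at 20 CPM or more, where 0.493% of 5066 genes were at least 2-fold higher and 3.18% at least 2-fold lower, 11 of 12 constitutive cytotoxic granule genes had the lower level in cluster 8, with a median log2 ratio of -0.46. Gzmb was the member past 2-fold, at 2398 against 5230 CPM. Gzma, the most abundant granzyme, was at 7259 against 13555 CPM (-0.90, -0.93 to -0.87), and perforin, Prf1, at 168 against 244 CPM. The median thinned cell held 10 Gzma UMIs in cluster 8 and 19 in cluster 0, and 2 and 5 Gzmb UMIs. Gzma and Gzmb were thus lower in the typical cell of cluster 8, and not through a few cells.

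Chemokines and interferon gamma showed the largest deficit. Ccl4 was at 388 CPM in cluster 8 (359 to 419) and 3875 CPM in cluster 0 (3779 to 3974), a log2 ratio of -3.30 (-3.42 to -3.19). Ccl3, its neighbour on chromosome 11, was at 94.5 and 712 CPM (-2.85), and Ccl5 at 2932 and 14951 CPM (-2.35, -2.39 to -2.30). All 3 chemokines were thus lower in cluster 8 by more than 2-fold. Ifng was at 169 and 691 CPM (-1.998, -2.19 to -1.81). Xcl1, the ligand of the dendritic cell receptor Xcr1, was at 1180 and 2470 CPM, although 1 cell held 30.6% of its UMIs in cluster 0, and the median thinned cell had 1 UMI in cluster 8 and 0 in cluster 0. For Ccl5 the median thinned cell had 3 UMIs in cluster 8 and 21 in cluster 0. The lymphotoxin subunit gene Ltb went the other way, at 236 and 124 CPM (0.90, 0.66 to 1.15), and the growth factor gene Flt3l was at 87.3 and 86.2 CPM. Of 7 measured cytokine and chemokine genes, 5 were at least 2-fold lower and none at least 2-fold higher. Of all 5066 genes at 20 CPM or more, 3.18% were lower and 0.493% higher by that margin. Xcl1 is among the 5, yet 55.3% of thinned cells held it in cluster 8 and 48.2% in cluster 0.

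**Figure D3:**
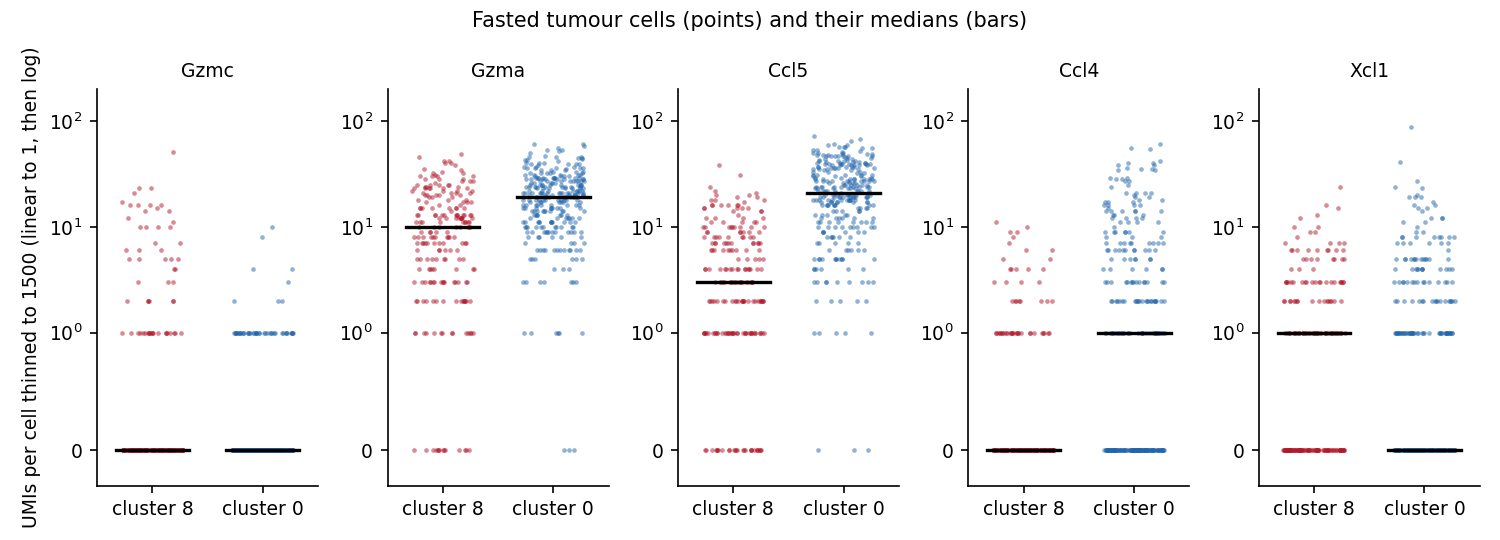
UMIs of 5 genes in single fasted tumour cells of cluster 8 (red, 219 cells) and cluster 0 (blue, 299 cells), each cell thinned to 1500 UMIs. Points are cells, spread sideways at random, and bars are medians; the axis is linear to 1 and logarithmic above. The Ccl5 bar is at 3 in cluster 8 and 21 in cluster 0, while both Gzmc bars are at 0 and the cells with most Gzmc are in cluster 8.

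Interferon-induced genes were lower in cluster 8 for 16 of 17 list members, with a median of -0.95 that stayed between -0.97 and -0.71 under the alternatives. Isg15, a ubiquitin-like modifier, was at 346 and 674 CPM (-0.95, -1.10 to -0.81). Ifit3, which restrains viral RNA, was at 103 and 268 CPM (-1.34, -1.59 to -1.09), and Ifit1 at 87.3 and 163 CPM (-0.86). Ifi27l2a, at 58.0 and 226 CPM, had the lowest ratio of the list (-1.87). Rsad2 and Ifi204, interferon-induced genes outside the list, were also among the 12 lowest genes named, at -1.52 and -1.53. Ly6a was the member with the higher level in cluster 8, at 179 and 145 CPM.

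The promoters of 2 of these genes are shown because they hold the sequence that interferon-activated factors read, GAAA, any 2 bases and GAAA, searched on both strands. They are the 250 bases before the start in the RefSeq table for GRCm38.p6, the build of mm10, read 5′ to 3′ along the gene, with matches in capitals. The Isg15 window is chr4:156200819-156201068 on the minus strand, with 3 matches that overlap, and the Ifit3 window is chr19:34583279-34583528 on the plus strand, with 2.
Isg15: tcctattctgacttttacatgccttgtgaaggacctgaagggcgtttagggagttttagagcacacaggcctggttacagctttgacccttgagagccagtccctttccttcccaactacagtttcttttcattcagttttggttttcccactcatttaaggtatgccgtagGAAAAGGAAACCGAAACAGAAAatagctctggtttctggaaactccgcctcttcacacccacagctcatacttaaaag
Ifit3: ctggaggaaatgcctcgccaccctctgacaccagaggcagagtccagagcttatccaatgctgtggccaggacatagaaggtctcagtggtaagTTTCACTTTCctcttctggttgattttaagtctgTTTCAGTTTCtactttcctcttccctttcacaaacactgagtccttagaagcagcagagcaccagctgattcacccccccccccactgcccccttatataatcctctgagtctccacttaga
Of the 17 listed genes 10 matched an entry of that table, and 4 of the 10 held a match, Ifit1, Ifit3, Isg15 and Bst2. Among all 27025 genes with a window, 3.46% held one. The 4 genes with a match had log2 ratios of -0.86, -1.34, -0.95 and -0.74 in that order, inside the range of the other members. A match describes the letters alone, and binding was not measured.

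Immediate early genes, which are transcribed within minutes of a stimulus, were lower in cluster 8 for 14 of 14 members (median -0.99), of which 7 were at least 2-fold lower. Junb, a subunit of the transcription factor AP-1, was at 1671 and 3426 CPM (-1.03, -1.10 to -0.97). Fos was at 156 and 400.2 CPM, Nr4a1, a receptor gene induced by antigen and NK receptor signals, at 123 and 339 CPM, and Egr1 at 87.3 and 188 CPM. Nr4a2, at 87.3 and 97.0 CPM, had the smallest difference. Enzymatic digestion of tissue can induce these genes, and its part in the difference was not tested. Genes of the IL-2 and STAT5 pathway were lower for 10 of 11 members (median -0.59), led by the kinase gene Pim1 at 402 and 1085 CPM (-1.42). Glucocorticoid targets were lower for 10 of 10 (-0.52), with Tsc22d3 at 351 and 464 CPM.

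Maturation and homing genes formed a further low group. All 9 measured genes of mature circulating NK cells were lower (median -1.18). Klf2, a transcription factor for recirculation, was at 536 and 1219 CPM (-1.18, -1.29 to -1.06), and Itgam at 7.78 and 36.8 CPM (-1.71). Integrin and homing receptor genes were lower for 11 of 12 members (-0.76), among them Cxcr4 at 358 and 658 CPM. NK transcription factor genes were lower for 12 of 13 (-0.41), with Runx3 at 462 and 708 CPM and Eomes at 125 and 165 CPM. Inhibitory and activating NK receptor genes were lower for 11 of 13 members, none of them past 2-fold, with a median of -0.32. NK identity genes were lower for 12 of 14, with the same median, and Itga2 and Gzma had the lowest ratios. The median of all 5066 genes at 20 CPM or more was itself -0.17, so most genes were on the lower side. The receptor and identity medians lie close to it, and the other scalings shifted genes by 0.18 and 0.25.

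Genes of growth and protein synthesis were the ones on the higher side. Of 14 measured MYC and nucleolar growth genes, 13 were higher in cluster 8 (median 0.36, and 0.32 to 0.61 under the alternatives). Npm1, a nucleolar chaperone, was at 1419 and 837 CPM (0.76, 0.66 to 0.86), and Fbl, which methylates ribosomal RNA, at 163 and 92.0 CPM (0.79). Myc itself was lower, at 58.0 and 114 CPM (-0.92, -1.26 to -0.58). None of these passed 2-fold. Among the named genes were C1qbp, a mitochondrial matrix protein, at 117 and 48.2 CPM (1.20, 0.84 to 1.57), the mitochondrial ribosome genes Mrpl12 (1.08) and Mrpl23 (1.02), the elongation factor gene Eef1g at 823 and 400.2 CPM (1.03), and the nucleotide enzyme genes Dctpp1 (1.25) and Nme1 (0.93). Tmem147 (1.08), Pglyrp1 (0.94) and the initiation factor gene Eif3i (0.92) completed this group. Spp1 was at 53.2 and 22.2 CPM (1.10), but with cells of all populations its ratio was -0.33. Oxidative phosphorylation genes were higher for 14 of 20 members (0.17) and glycolysis genes for 10 of 13 (0.29), with Gapdh at 782 and 523 CPM. Dividing-cell genes were low in both clusters, 4 of 14 reaching 20 CPM in either, with Top2a at 43.7 and 43.1 CPM.

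The rest of the 12 lowest genes named were Casp4 at 40.1 and 143 CPM (-1.72), Mxd1, a MYC antagonist, at 193 and 575 CPM (-1.55), and Gadd45b at 103 and 308 CPM (-1.53). H2-Eb1 and H2-Ab1, antigen-presenting molecules of other cell types, were also named. In cluster 0, 93.7% and 92.9% of their UMIs lay in 1 cell, and without each cluster's highest cell their ratios were -0.036 and 0.052.

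A second view set the 231 tumour cells of cluster 8 against the 711 tumour cells of all other clusters, and was chosen after the data were seen. Cluster 8 had no gene that was at least 2-fold higher of 2527 tested (0%), and 91 that were at least 2-fold lower (3.6%). Leaving out cells with 3 or more markers of another type brought the 91 to 36, and to 38 when the T cell list was not used for this. Macrophage genes moved with this comparison: their list summed to 1517 CPM in the other tumour clusters and 42.9 CPM in cluster 8. Apoe, at 8.12 and 485 CPM, had a ratio of -5.22 that turned to 0.41 and 0.30 without such cells. Il1b went from -5.04 to -0.54 and -0.27, H2-Aa from -4.93 to -0.059 and -0.045, and Cxcl2 from -5.20 to -2.15 and -1.51. Apoe and H2-Aa are themselves markers by which those cells were left out, so a smaller ratio follows in part from that choice. The interferon-induced membrane genes Ifitm1 and Ifitm2, which are not, went from -4.70 and -4.68 to -3.12 and -4.58 without such cells, and to -4.33 and -4.20 when the T cell list was not used.

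The inducible granzyme genes Gzmd and Gzme were lower in cluster 8 under every alternative tried. Gzmd was at 6.38 CPM in cluster 8 and 1157 in the other tumour clusters (-6.67, -7.15 to -6.14), and at -6.21 and -6.48 without cells with such markers. Gzme was at 2.32 and 500.2 CPM (-6.11), and at -5.36 and -5.82 without those cells. With the same weight per cell Gzmd and Gzme were at -4.88 and -4.25, and with thinned cells at -4.68 and -5.12. Gzmc was at 1577 and 12550 CPM (-2.99), and its ratio without cluster 11 is not given here. All 5 measured genes of the inducible granzyme list were at least 2-fold lower. Within the fasted tumour, Gzmc reached 28483 CPM in the 51 cells of cluster 11, whose median was 26055 UMIs per cell, and without cluster 11 the Gzmd ratio was -5.11. Cluster 8 thus lay above cluster 0 and well below cluster 11 in Gzmc. A low level of Gzmd was shared with the fasted tumour cells of cluster 0, as given above.

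Dividing-cell genes separated cluster 8 from the other tumour clusters as well, with 13 of 13 lower (median -1.60), 11 of them at least 2-fold, where 3.97% of 5082 genes at 20 CPM or more were lower and 0.0394% higher by that margin. Stmn1 was at 46.4 and 228 CPM and Top2a at 43.5 and 122 CPM. Glycolysis genes were lower for 14 of 14 (-0.70), with Gapdh at 770 and 1434 CPM. Unfolded protein response genes were lower for 12 of 12 (-0.82), with the chaperone gene Hspa5 at 552 and 845 CPM, and sterol and fatty acid synthesis genes for 8 of 8 (-1.07), with Cyp51 at 12.8 and 34.8 CPM. The medians of these 4 lists stayed below 0 under every alternative tried. The median of all genes was -0.09 and moved by 0.13 and 0.16 with the other scalings, and medians near 0 turned with it, among them those of the cytotoxic granule, MYC, oxidative phosphorylation, NK transcription factor and TGF-beta lists. Interferon-induced genes, 16 of 17 lower against cluster 0, were here lower for 15 of 17 with a median of -0.28. Cluster 0 gave 332 of the 711 other tumour cells. Against its fasted tumour cells the medians were -0.07 for dividing-cell and 0.29 for glycolysis genes. They were -0.18 for unfolded protein response and -0.43 for sterol and fatty acid synthesis genes. Low levels of dividing-cell genes were thus shared with cluster 0.

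The 8 genes named for the highest ratios in cluster 8 included Emid1 (0.79), Grcc10 (0.78), Serpina3f (0.75) and Epb41l4aos (0.70). The others were the adhesion receptor gene Cd2 at 215 and 130 CPM (0.71, 0.53 to 0.88), the integrin gene Itgb7 at 135 and 84.8 CPM (0.64), and the NK receptor genes Klrb1a at 162 and 100.2 CPM (0.66) and Klrb1c, which encodes NK1.1, at 421 and 280 CPM (0.58). The ratios of these 4 changed with the setting, and the cause was not tested. After cells were thinned to the same depth Cd2 and Klrb1c turned to -0.084 and -0.067, and Itgb7 and Klrb1a went to 0.16 and 0.11. With the same weight per cell Cd2, Klrb1c, Itgb7 and Klrb1a were at 0.32, 0.047, 0.035 and 0.14. Without cluster 11 they were at 0.41, 0.22, 0.22 and 0.28 in that order. NK identity genes were higher for 9 and lower for 4 of 13, with a median of 0.04. Genes of the T cell list were higher for 5 of 5, none of them past 2-fold, with a median of 0.37.

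**Figure D4:**
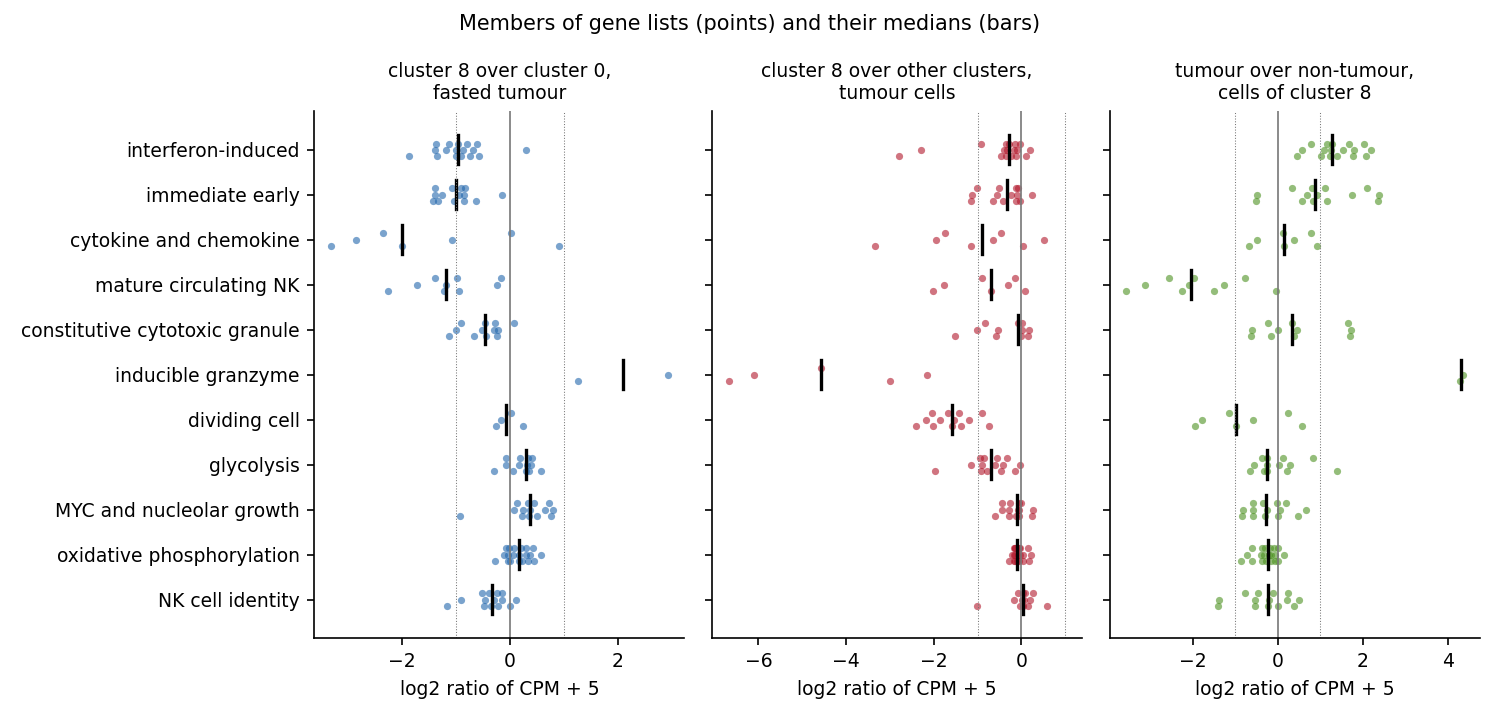
Log2 ratios of CPM + 5 of the members of 11 gene lists in 3 comparisons. Points are genes at 20 CPM or more in either group, bars are medians, and dotted lines mark 2-fold. Most interferon-induced and immediate early genes lie below 0 for cluster 8 against cluster 0 and above 0 for tumour against non-tumour cells of cluster 8; dividing-cell genes lie below 0 in the middle panel.

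Against all 7204 singlets outside the cluster, the tissue makeup enters the comparison, since 84.0% of cluster 8 and 12.6% of all singlets were tumour cells. Of 2731 genes, 78 were at least 2-fold higher (2.86%) and 126 lower (4.61%), against 120 and 69 with TMM factors and 140 and 118 with totals without ribosomal protein and mitochondrial genes. The higher genes included Isg20, an interferon-induced exonuclease, at 234 and 47.5 CPM (2.18), Cxcr4 (1.98), Vegfa (1.98), the TGF-beta target Pmepa1 (1.96), the STAT5 target Cish (1.88), Irs2 (2.03), Serpina3f (2.10), Hilpda (1.92), Ifi44 (1.92), Maff (1.85) and Gpr183 (1.79). Among tumour cells alone none of these passed 2-fold, and Cxcl10, at 2.04 here, was at -0.048 there. The lower genes included Klrg1, Itgam, S1pr5 and Cma1, genes of mature NK cells, at -2.76, -2.71, -2.65 and -3.40, with 12 of 12 list members lower and 11 past 2-fold, where 2.02% of 5344 genes at 20 CPM or more were higher and 4.6% lower by that margin. Gzmd (-4.15) and Gzme (-3.66) were among them. S100a9, S100a8, Camp, Lyz2, Apoe and Cxcl2, genes of myeloid cells, completed the group at ratios from -4.20 to -2.74. Outside the cluster 1 cell held 55.6%, 53.9% and 59.3% of the S100a9, S100a8 and Camp UMIs, and without highest cells their ratios were -3.18, -2.84 and -2.06. Without cells holding markers of another type Lyz2 turned to 0.18 and Apoe to 0.32. Of 6 measured genes of the T cell list 2 were higher and 4 lower (median -0.20), and Trac was past 2-fold higher (1.33).

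How members of the cluster differed by tissue was asked next, since tissue came from the hashtags and not from the clustering. The 231 tumour cells summed to 1724828 UMIs and the 44 bone marrow and spleen cells to 249052, so that 1 UMI in the latter stands for 4.02 CPM and 0 UMIs allow up to 12.0 CPM, the level of 3 UMIs. Feeding differed along with tissue. Of the 231 tumour cells 222 were fasted, while 17 of the 31 spleen and 6 of the 13 bone marrow cells were refed. Tissue and feeding therefore cannot be told apart here. Tumour cells were higher in interferon-induced and TGF-beta response genes and lower in genes of mature circulating NK cells. Of 2704 genes, 188 were at least 2-fold higher in tumour (6.95%) and 158 lower (5.84%). These counts rest on few non-tumour cells. They were 280 and 85 with TMM factors, 305 and 291 with totals without ribosomal protein and mitochondrial genes, 246 and 83 without each gene's highest cells, 242 and 291 with the same weight per cell and 350 and 634 after thinning. With the scalings the median of all genes, -0.16, moved by 0.26 and 0.03.

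Rgs1, a regulator of chemokine receptor signalling found in tissue lymphocytes, was at 1381 CPM in tumour and 84.3 CPM in non-tumour cells of the cluster (3.96, 3.37 to 4.60). Gzmc was at 1577 and 72.3 CPM (4.36, 3.73 to 5.05). AA467197 had 601 UMIs in tumour and 1 in non-tumour cells (5.29, 3.68 to 6.12), Lilrb4a 386 and 2 (4.13), and Amica1 224 and 1 (3.90). Ctla4, a checkpoint receptor gene, was at 55.1 CPM in tumour cells and 0 UMIs in the others, at least 4.57-fold higher against the floor of 3 UMIs over the group. Gzmf, at least 7.65-fold higher by the same floor, had 81.8% of its UMIs in 1 tumour cell. Cxcl10, a chemokine induced by interferon, was at 573 and 44.2 CPM (3.56).

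Interferon-induced genes were higher in tumour for 17 of 17 members, 14 of them past 2-fold (median 1.27), where 6.52% of 5489 genes at 20 CPM or more passed 2-fold higher and 8.07% lower. Isg15 was at 352 and 145 CPM and Ifit1 at 91.6 and 16.1 CPM. TGF-beta response genes were higher for 7 of 9 (1.62), with Smad7 at 343 and 64.2 CPM and Pmepa1 at 240 and 36.1 CPM. Immediate early genes were higher for 12 of 14 (0.88), with Dusp1 at 269 and 48.2 CPM. Enzymatic digestion can induce these genes, as said above, and its part in this difference between tissues was not tested either. Signal genes of the STAT5 pathway stood high too, with Cish at 171 and 12.0 CPM and Socs1 at 133 and 24.1 CPM. Gzmb was at 2422 and 763 CPM, while Gzma was at 7318 CPM in tumour and 7340 CPM in the pooled non-tumour cells. That pool joins 8628 CPM in the 31 spleen cells and 2447 CPM in the 13 bone marrow cells, so the tumour level lay between them.

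Genes of mature circulating NK cells were lower in tumour for 10 of 10 members, 8 of them past 2-fold (-2.03). S1pr5, an exit receptor, was at 2.90 and 64.2 CPM (-3.13, -3.78 to -2.21), Zeb2 at 47.0 and 217 CPM (-2.09) and Cma1 at 2.90 and 88.3 CPM (-3.56). Also named were Cd7 at 49.3 and 293 CPM (-2.46), Syk, a kinase of NK receptor signalling, at 13.3 and 96.4 CPM (-2.47), Rasgrp2 (-2.58), Acp5 (-2.19) and AI467606 (-2.17). Ncr1 was at 267 and 703 CPM, the latter from 801 CPM in spleen and 328 CPM in bone marrow cells. The T cell gene Cd3d was at 27.2 CPM in tumour cells, 20.3 CPM in spleen cells and 540 CPM in bone marrow cells, and the whole T cell list summed to 945, 538 and 1734 CPM. With spleen cells as the only non-tumour cells, 198 genes were at least 2-fold higher in tumour and 208 lower.

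The levels of single populations were spread where cells were few. Gzmc was at 1581 CPM in the fasted tumour, 2762 CPM in the ad libitum tumour (75 UMIs in 4 cells) and 77.1 CPM in the refed tumour (2 UMIs in 5 cells). In the spleen it was at 313.6 CPM in naive, 54.0 in refed and 53.4 in fasted cells and at 0 UMIs in ad libitum cells, and in bone marrow between 56.1 and 95.8 CPM. Ifng was at 169, 73.7 and 2543 CPM in the fasted, ad libitum and refed tumour, the last from 66 UMIs, at 26.7 to 211 CPM in the spleen populations and at 0 UMIs to 479 CPM in those of bone marrow. Rgs1 was at 1385 CPM in the fasted, 2273 in the refed and 295 in the ad libitum tumour, and at 282 CPM or less in each of the 7 others. Every tumour population thus lay above every other one for Rgs1, though the distance between the ad libitum tumour (8 UMIs) and the ad libitum spleen (4 UMIs) is within counting error. S1pr5 was at 2.99 CPM in the fasted tumour and at 0 UMIs in the refed and ad libitum tumour, and ran from 38.6 to 423 CPM in the spleen populations. In the 3 bone marrow populations it was at 0 UMIs, which their few cells make weak evidence of a low level.

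**Figure D5:**
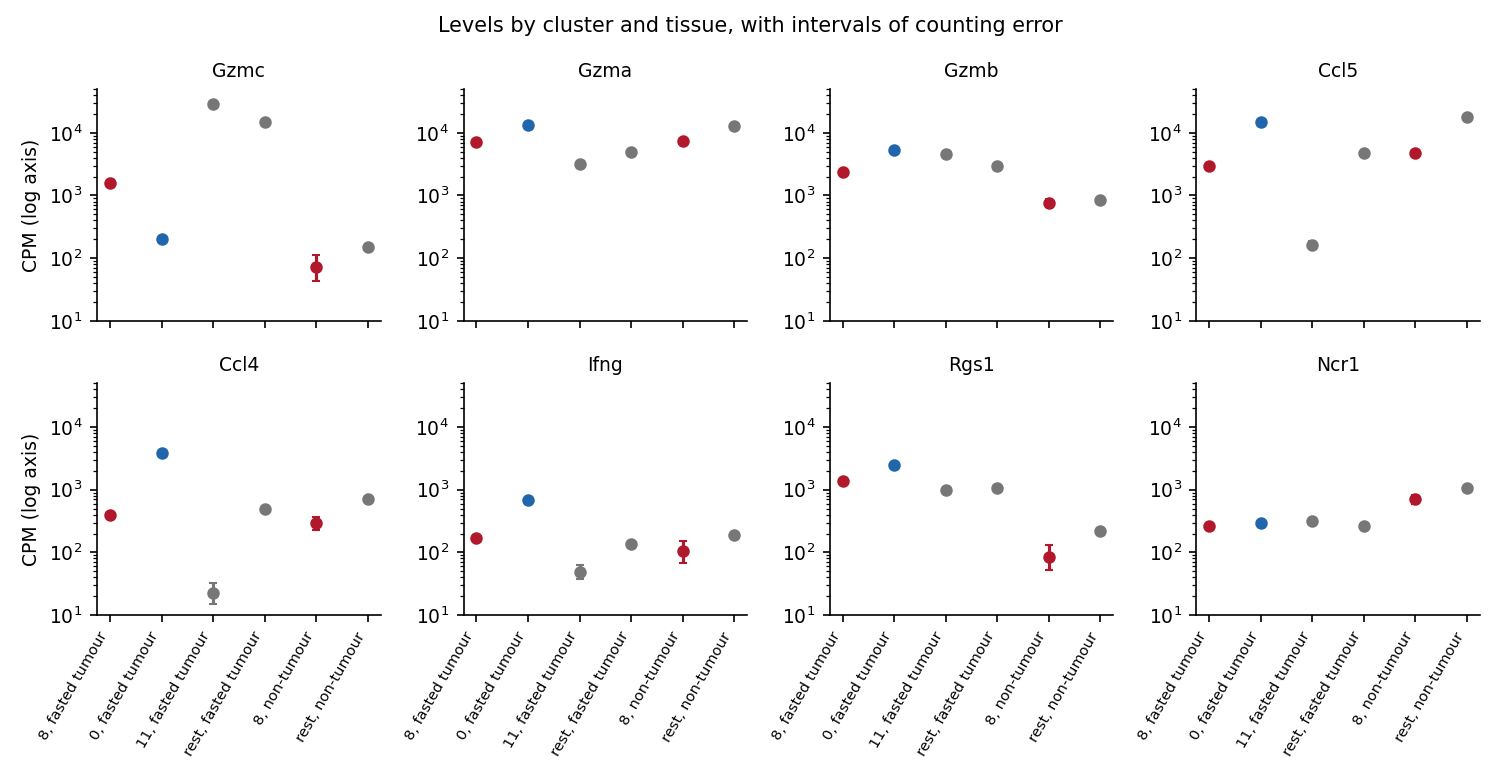
CPM (log axis) of 8 genes in fasted tumour cells of clusters 8, 0 and 11, in fasted tumour cells of all clusters other than 8 and 0 (rest, cluster 11 included), and in bone marrow and spleen cells of cluster 8 and of the other clusters (rest). Bars are exact 95% Poisson intervals, hidden by the points where narrow. Gzmc is at 1581 in cluster 8, 205 in cluster 0 and 28483 CPM in cluster 11, and Ccl4 at 388, 3875 and 22.5 CPM.

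The 44 bone marrow and spleen cells of cluster 8 were also set beside the 6493 of other clusters, a comparison added after the data were seen. Its count of genes is unstable, since without each gene's highest cells the genes at least 2-fold apart went from 32 higher and 136 lower to 3 and 289. It is therefore described by list medians, and single levels are examples whose ratios are also given without those cells. Leaving out highest cells also moved the median of all genes at 50 CPM or more, from -0.09 to -0.33. MYC and nucleolar growth genes were higher for 14 of 14 members (0.74, and 0.39 or more under every alternative), at a background of 1.95% of 5730 genes higher by 2-fold and 7.89% lower. Odc1, the first enzyme of polyamine synthesis, was at 137 and 48.7 CPM (1.40, and 0.75 without highest cells), and Srm, a later one, at 68.3 and 26.7 CPM (1.21 and 0.76). Dividing-cell genes were lower for 11 of 12 (-1.55), with Top2a at 36.1 and 199.9 CPM (-2.32 and -2.62), but the exception, the replication gene Mcm5, was at 104 and 43.3 CPM (1.18 and 0.76). With the same weight per cell this median was -0.26. Genes of mature NK cells were lower for 11 of 12 (-0.78), and NK identity genes for 14 of 14 (-0.50), with Gzma at 7340 and 12873 CPM (-0.81 and -0.96). Ccl5 was at 4782 and 17588 CPM (-1.88 and -1.98) and Ccl4 at 293 and 719 CPM (-1.28 and -1.76). Interferon-induced genes were higher for 10 of 14, with a median of 0.63. Without highest cells this median was -0.18, where that of all genes was -0.33. In the fasted tumour, interferon-induced genes were lower in cluster 8 than in cluster 0. Immediate early genes were lower for 11 of 13 (-0.50).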

How the data were processed

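RNA of NK cells from 10 hashtagged populations was measured in 1 10X Chromium lane. The deposited matrix holds whole UMI counts per cell and gene, made with seqc per the labels' protocols, and a cluster number per cell, a score that the authors deposited with no method given in the sources used here. The submitters' processing notes name mm10. How hashtags were classified and how reads matching several genes were counted are likewise not given. The matrix has 13118 cells, no repeated barcode and 16789 gene symbols; 7479 cells were singlets, 5606 called doublets and 33 unclassified. Called doublets were left out. Scrublet (scanpy 1.11.5) marked 0 cells and was not usable as a caller, so cells in the top 10% of its scores were left out as an alternative.

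Counts were summed per group and scaled to CPM. Ratios are log2 of CPM + 5 with 95% intervals from the exact split of counts. Levels have exact Poisson and shares exact Clopper-Pearson intervals, which cover counting error only. A gene was counted from 50 CPM in either group, a list member from 20 CPM, and 0 UMIs stand for at most 3. Genes named are the 12 highest and 12 lowest ratios for cluster 8 against cluster 0 and against all clusters, and the 8 highest and lowest in the other comparisons, among genes with an interval that excludes equality; further genes are members of 25 lists, of which the examples were partly chosen after their values were seen, as were Cxcr6, Cst3 and Cd3d. Members and lists were chosen with earlier results of these data known. The comparisons among tumour cells and among non-tumour cells of different clusters, the genes shown per population and per cell, the motif and the promoters printed were chosen after the data were seen. The code was tested on simulated data. TMM factors came from edgeR 4.0.16, with Python 3.11.15, numpy 2.4.6, scipy 1.17.1 and pandas 2.3.3. Some list members are not reported here.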

Additional observations from a re-analysis of the deposited data

How the results depend on the processing

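Genes at least 2-fold higher and lower are given in that order. For cluster 8 against cluster 0 (10 and 98) they were 23 and 54 with TMM factors, 60 higher with totals without ribosomal protein and mitochondrial genes, 4 and 55 with a pseudocount of 20 CPM, 25 and 161 with a minimum of 20 CPM, 52 and 220 with none, 36 and 192 with cells thinned to 1500 UMIs, and 6 higher with cells of all populations. Against all other clusters (78 and 126) the same settings gave 120 and 69, 140 higher, 79 lower, 246 lower, 119 and 415, and 198 lower, and tumour populations only gave 0 higher. For tumour against non-tumour cells (188 and 158) TMM factors gave 85 lower, totals without those genes 305 and 291, a pseudocount of 20 CPM 81 lower, a minimum of 20 CPM 358 and 443, none 830 and 723, the same weight per cell 291 lower, thinning 350 and 634, and leaving out highest cells 83 lower. Among tumour cells (0 and 91) TMM factors gave 1 higher, totals without those genes 2 higher, a minimum of 20 CPM 2 and 202, none 4 and 406, and thinning 8 higher. Leaving out cells with 3 markers of another type gave 36 lower there, and 38 without the T cell list.

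Directions turned for H2-Ab1 (0.052 without highest cells) and Spp1 (-0.33 with all populations) against cluster 0. Against all other clusters Apoe (0.32) and Lyz2 (0.18) turned without cells with markers of another type, and Apoe (0.17), Cxcl2 (0.034) and Lyz2 (0.12) when T cell markers were not used. With tumour populations only, Cxcl10 (-0.048) and Camp (0.23) turned, and so did the TGF-beta (-0.011), interferon-induced (-0.28) and immediate early (-0.33) medians. Further medians that turned there were glycolysis (-0.70), hypoxia (-0.49), STAT5 (-0.34), heat shock (-0.14) and MYC (-0.11). The glucocorticoid (-0.10), ATF4 (-0.054) and NK receptor (0.065) medians turned as well. Among tumour cells Apoe turned to 0.41 and 0.30, and after thinning Cd2 to -0.084 and Klrb1c to -0.067. The cause was not tested. List medians crossed 0 under at least 1 alternative for 8 of 25 lists against cluster 0, 16 against all clusters, 9 by tissue, 11 among tumour cells and 10 among non-tumour cells. The planned comparison of feeding states was not run. No paired analysis was possible because each population was 1 sample. The 44 non-tumour cells and the 9 cells from the refed and ad libitum tumours limit what depth can show.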
